A study of Mus musculus with 42 samples.

Results

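Potassium channel genes of the mouse stomach and gut epithelium are described here across all 15 sample groups of a microarray study. Members were every gene whose symbol begins with Kcn, each read from the single-symbol probe set with the highest mean over all arrays. The rule gave 90 genes of the 22180 genes on the array. They comprise pore-forming subunits of every potassium channel family, their accessory subunits, and 3 other transcripts (Kcnrg, Kcnq1ot1 and Kcnd3os). Kcnj13, Kcnk3 and Kcnmb4os1, found on probe sets shared with a second symbol, were left out.

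The 42 arrays came from healthy, untreated adult mice, not selected for sex and at least 7 to 8 weeks old, in 3 genotypes. In Lgr5-EGFP-DTR mice (DTR), green fluorescent protein and a diphtheria toxin receptor are made from the Lgr5 locus; pyloric cells were sorted into Lgr5Hi, Lgr5Lo and Lgr5Neg, with 3 arrays each. In Lgr5-EGFP-IRES-CreERT2 mice (IRES), the Lgr5 locus drives green fluorescent protein and an inducible Cre, and no toxin or Cre inducer was given in either line. The IRES pylorus gave 4 Lgr5Hi, 4 Lgr5Lo and 2 whole-gland arrays. The small intestine gave 2 Lgr5Hi, 2 Lgr5Lo, 2 crypt arrays and 1 whole array, and the colon gave 3 Lgr5Hi, 3 Lgr5Lo and 2 whole arrays. Wild-type (WT) pyloric cells were stained for the water channel Aqp5 and split into Aqp5Pos and Aqp5Neg, with 4 arrays each. Lgr5 is a Wnt target gene that marks stem cells in these organs, so the Lgr5 sorts set stem-cell-enriched fractions against their dimmer or unlabelled neighbours. Groups follow the titles, because for the DTR arrays another label field gives the IRES line. Replicates are called biological by the labels, and p-values measure the spread between such samples.

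Potassium channels let potassium leave the cell and set the membrane voltage, and in epithelia that voltage drives secretion of chloride and fluid. In the stomach the pore subunit Kcnq1 pairs with Kcne2 in the apical membrane of parietal cells and recycles potassium to the proton pump, whose catalytic subunit is Atp4a. In intestinal crypts Kcnq1 pairs with Kcne3 in the basolateral membrane and supports chloride secretion. Inward rectifiers such as Kcnj15 and Kcnj16, leak channels of the Kcnk family, and calcium-activated channels such as Kcnn4 and Kcnma1 are further members known from gut epithelium.

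The values are log2 intensities, and the array medians lay between 3.82 and 4.25 with a median of 3.95. The number of arrays in a group limits the precision of each value, and no detection calls were used. Several arrays went against their labels or differed from their replicate. Whole colon replicate 1 had a gastric profile, with 12.69 for Atp4a against 4.98 on whole colon replicate 2. The crypt arrays of the small intestine had an enterocyte marker level of 11.64 against 9.95 on the whole array, and whole pylorus replicates differed in Atp4a, at 10.88 and 6.99. None of these arrays entered the tests, which used only sorted cells. Lgr5 itself was higher by 4.13 in DTR Lgr5Hi than in Lgr5Neg cells and by 2.02 in IRES pyloric Lgr5Hi than in Lgr5Lo cells. In sorted or whole tissue, fewer cells of a type and less RNA per cell cannot be told apart.

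Most potassium channel genes stayed near the median of the arrays. Taking a gene as above background brightness when at least 1 group mean exceeded 4.95, that is 1 log2 unit over the median of the array medians, 25 of the 90 members (27.8%) were above, against 11514 genes (51.9%) of the whole array. The highest group mean of a member had a median of 4.46, against 5.07 over all genes. Of the 65 members near or below the median, 26 had no group mean above 3.95. Only 6 members were above the threshold in every group. Just inside the threshold lay Kcnj4 at 4.99, and just outside lay Kcnj14 at 4.95 and Kcnn1 at 4.93. With a distance of 0.5 in place of 1, 45 members were near the median, and with 1.5, 73 were.

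Of the accessory KCNE subunits 4 of 5 were above the threshold (Kcne1, Kcne1l, Kcne2 and Kcne3). Kcne1l was above only through the single whole small intestine array, at 5.03, and its other group means reached at most 4.92. The inward rectifier Kcnj4 was likewise above only through that array, at 4.99. Among the leak channels of the Kcnk family, which hold the resting potential, 7 of 13 were above (Kcnk1, Kcnk4, Kcnk5, Kcnk6, Kcnk10, Kcnk15 and Kcnk16). Of the inward rectifiers 4 of 14 were above (Kcnj4, Kcnj10, Kcnj15 and Kcnj16), of the calcium-activated channels 2 of 5 (Kcnn4 and Kcnma1), and of the KCNQ channels 1 of 3 (Kcnq1). The voltage-gated alpha subunits, best known from nerve and muscle, were the largest family and had 4 of 25 above (Kcna2, Kcna4, Kcnc4 and Kcns3). Ether-a-go-go channels, relatives of the cardiac channel Kcnh2, had 2 of 8 above (Kcnh2 and Kcnh3). None of the 7 beta subunits, the 4 KChIP proteins or the 3 sodium- or pH-gated channels of the Slo family was above. For Kcnc4, Kcne1, Kcnj15 and Kcnj16 the highest group mean was that of whole colon, which holds the array with the gastric profile; Kcne1 was above only through that group, where that array had 6.13 and the other whole colon array 3.99.

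**Figure D1:**
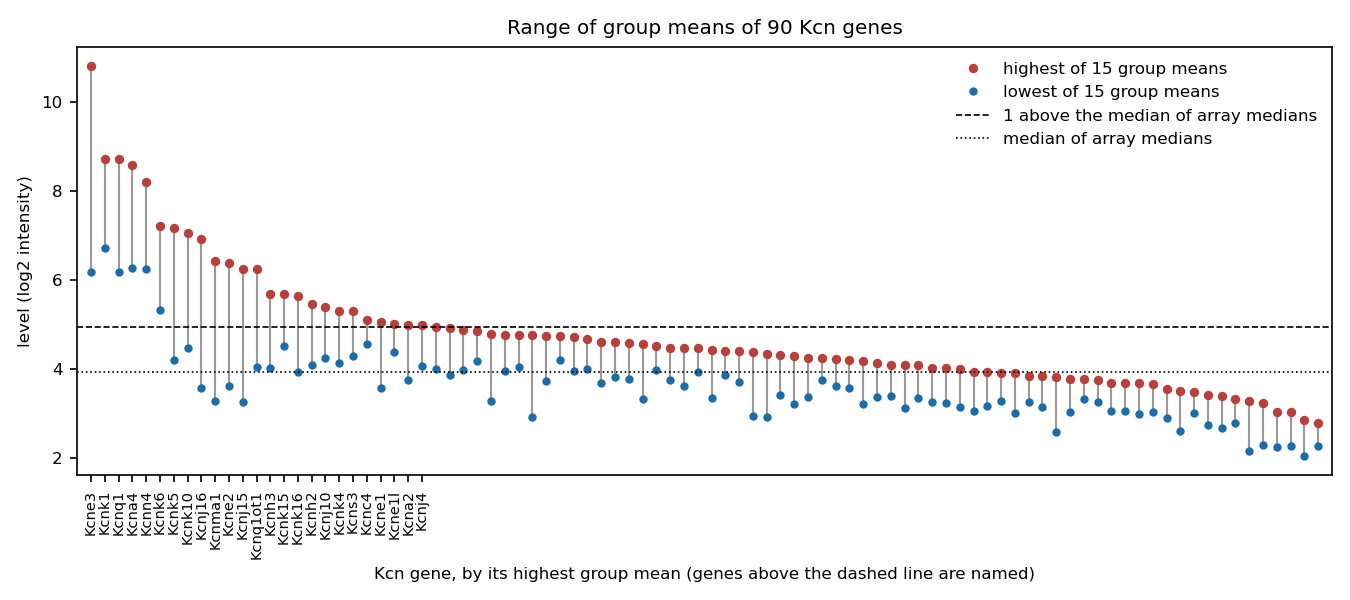
Highest (red) and lowest (blue) of the 15 group means (log2 intensity, vertical axis) of each of the 90 potassium channel genes, in the order of their highest group mean. The dotted line marks the median of the array medians at 3.95 and the dashed line the threshold at 4.95; the 25 genes above it are named. Brightness differs between probe sets, so positions of different genes do not rank their abundance.

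**Figure D2:**
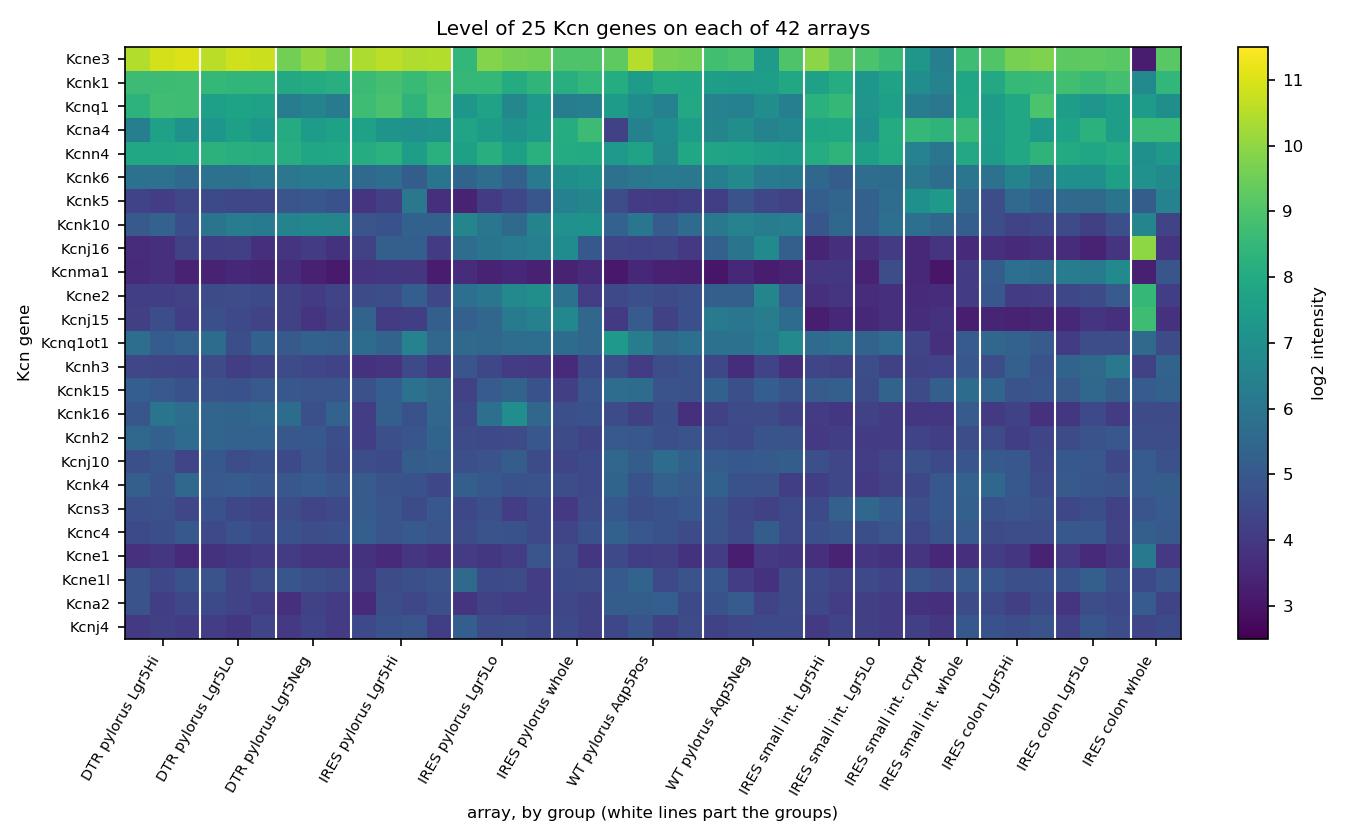
Log2 intensity (colour) of the 25 members above the threshold on each of the 42 arrays, with genes in rows and arrays in columns, white lines parting the groups. Kcne3, Kcnk1, Kcnn4, Kcnq1 and Kcna4 are bright in most groups, and Kcnj15, Kcnj16 and Kcne2 are brightest on 1 whole colon array.

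Of the 4 comparisons of pyloric Lgr5 fractions, Kcnq1 was higher in the brighter fraction in all 4 and its partner Kcne3 in 3, but not in DTR Lgr5Hi against Lgr5Lo cells. The leak channel Kcnk10 was lower in 3, but not in DTR Lgr5Lo against Lgr5Neg cells. In DTR pylorus, Lgr5Hi against Lgr5Neg cells, 7 of 90 members passed the test (5 higher, 2 lower), a share below the 18.3% of all genes that passed. The median difference over the members was 0.03 and over all genes 0.02. Between Lgr5Hi and Lgr5Lo cells 2 members passed (1 higher, 1 lower) where 4.97% of genes did, with medians of 0.09 and 0.01. Between Lgr5Lo and Lgr5Neg cells 2 passed, both higher, where 2.2% of genes did. In IRES pylorus, Lgr5Hi against Lgr5Lo, 5 passed (2 higher, 3 lower), above a background of 1.59%, with medians of 0.02 and -0.04. In WT pylorus, Aqp5Pos against Aqp5Neg, 3 passed (1 higher, 2 lower) beside a background of 2.8%, with medians of 0.22 and 0.06. The DTR comparisons share arrays, and so do the IRES ones.

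Kcnq1, the voltage-gated pore subunit, followed the order of the sort gates in DTR pylorus. Its level was 8.33, 8.73 and 8.71 in Lgr5Hi, 7.57, 7.72 and 7.65 in Lgr5Lo, and 6.33, 6.51 and 6.17 in Lgr5Neg cells, so that the 3 groups did not overlap. Lgr5Hi exceeded Lgr5Neg by 2.26 ± 0.15 (log2 difference ± SE, 4.77-fold, adjusted p = 9.72e-07) and Lgr5Lo by 0.94 ± 0.15 (adjusted p = 0.00396). Lgr5Lo exceeded Lgr5Neg by 1.31 ± 0.15 (adjusted p = 0.000659). In 1 fit over all 42 arrays the Kcnq1 differences from Lgr5Lo did not pass, with adjusted p = 0.178 for Lgr5Hi against Lgr5Lo and 0.0636 for Lgr5Lo against Lgr5Neg. In IRES pylorus the 4 Lgr5Hi arrays read 8.70, 8.93, 8.34 and 8.94 and the 4 Lgr5Lo arrays 7.28, 7.68, 6.68 and 7.36. Again the groups stood apart, and the difference was 1.48 ± 0.27 (2.78-fold, adjusted p = 0.00732). In WT pylorus Aqp5Pos cells had 7.43, 6.86, 6.46 and 7.94 and Aqp5Neg cells 6.48, 6.47, 6.92 and 6.38, overlapping groups whose difference of 0.61 ± 0.28 did not pass (adjusted p = 0.261).

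Kcne3, the KCNE subunit that holds Kcnq1 open in crypt cells, was the brightest member probe set. DTR Lgr5Hi arrays read 10.46, 10.91 and 11.04, Lgr5Lo arrays 10.58, 10.84 and 10.78, and Lgr5Neg arrays 9.60, 10.04 and 9.65. The 2 labelled fractions overlapped each other and both lay above the unlabelled one. Lgr5Hi exceeded Lgr5Neg by 1.04 ± 0.18 (2.05-fold, adjusted p = 0.0011), and Lgr5Lo exceeded Lgr5Neg by 0.97 ± 0.18 (adjusted p = 0.0122). Without 1 Lgr5Lo or either of 2 Lgr5Neg arrays the second of these reached an adjusted p between 0.0558 and 0.0688. In IRES pylorus Kcne3 read 10.39, 10.59, 10.44 and 10.48 in Lgr5Hi and 8.45, 9.83, 9.67 and 9.57 in Lgr5Lo cells. The spread among the Lgr5Lo arrays was wide because of replicate 1, and the difference was 1.09 ± 0.26 (adjusted p = 0.0346). In 1 fit over all 42 arrays none of these Kcne3 calls held (adjusted p = 0.538, 1.0 and 0.355). That fit includes whole colon replicate 1, where Kcne3 read 3.19 against 9.19 on whole colon replicate 2. With all 25 IRES arrays the IRES call was lost (adjusted p = 0.545), and with only whole colon replicate 1 left out of them it held. The IRES call was also lost with a median shift of the arrays (adjusted p = 0.0593), and without Lgr5Hi replicate 1, 2 or 4 or Lgr5Lo replicate 1, with adjusted p up to 0.0962. WT Aqp5Pos cells had 9.25, 10.51, 9.64 and 9.60 and Aqp5Neg cells 8.78, 8.91, 7.49 and 9.02. The WT groups did not overlap, but the difference of 1.2 ± 0.34 did not pass (adjusted p = 0.0857).

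Markers of gland mucous cells were set beside Kcnq1 and Kcne3. Kcne3 did not pass in DTR Lgr5Hi against Lgr5Lo cells, and neither channel gene passed in WT. Of 6 gland mucous markers, 5 were higher in DTR Lgr5Hi than Lgr5Neg cells and 4 in DTR Lgr5Hi than Lgr5Lo cells. In IRES pylorus 2 were higher in Lgr5Hi than Lgr5Lo cells, and in WT 4 were higher in Aqp5Pos than Aqp5Neg cells. None of the markers was lower in any of these. Their mean level ran from 10.38 to 10.5 on DTR Lgr5Hi arrays, 9.56 to 10.03 on Lgr5Lo arrays and 7.82 to 8.31 on Lgr5Neg arrays. None of these markers was at or under the array median in any of the pyloric sorts. Pit cell markers moved the other way in DTR and WT, with 7 of 9 lower and 1 higher in DTR Lgr5Hi than Lgr5Neg cells. In DTR Lgr5Hi against Lgr5Lo and in WT Aqp5Pos against Aqp5Neg cells 7 were lower and 0 higher. In IRES pylorus, Lgr5Hi against Lgr5Lo, 0 were lower and 0 higher. Of 7 stem and sort markers, Lgr5 and Aqp5 among them, 7, 5, 3 and 4 were higher in the comparisons above, in the order given. None of them was lower. The part of these lists in the Kcnq1 and Kcne3 differences was not tested.

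Kcnk10, a leak channel opened by stretch, heat and lipids, was lower in the Lgr5Hi fractions of both reporter lines. Its level was 5.01, 5.32 and 4.67 in DTR Lgr5Hi, 5.98, 6.27 and 6.23 in Lgr5Lo, and 6.52, 6.62 and 6.58 in Lgr5Neg cells. The groups again took the order of the gates, here downward with Lgr5. Lgr5Hi lay below Lgr5Neg by -1.58 ± 0.17 (2.99-fold, adjusted p = 3.21e-05) and below Lgr5Lo by -1.16 ± 0.17 (adjusted p = 0.00229), the second not passing in 1 fit over all 42 arrays (adjusted p = 0.0943). Lgr5Lo against Lgr5Neg, at -0.42 ± 0.17, did not pass (adjusted p = 0.277). In IRES pylorus Lgr5Hi arrays read 4.89, 4.76, 5.31 and 5.30 and Lgr5Lo arrays 6.60, 6.05, 5.61 and 6.51, a difference of -1.13 ± 0.24 (adjusted p = 0.0191). Leaving out Lgr5Hi replicate 1 or 2 or Lgr5Lo replicate 1 or 4 gave adjusted p from 0.0505 to 0.0735 for Kcnk10. WT Aqp5Pos cells had 5.33, 6.02, 5.11 and 5.64 and Aqp5Neg cells 6.12, 6.49, 6.27 and 6.34; the groups did not overlap, and -0.78 ± 0.21 did not pass (adjusted p = 0.0706). All 9 markers of dividing cells and 7 of 9 pit markers were also lower in DTR Lgr5Hi than Lgr5Neg cells, and 3 of 9 dividing markers and no pit marker in IRES Lgr5Hi than Lgr5Lo cells. Whether they account for Kcnk10 was not tested.

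Of the other members that passed in DTR pylorus, all in Lgr5Hi against Lgr5Neg, 3 were higher and 1 lower. Kcnk1, a widely expressed leak channel, read 8.66, 8.68 and 8.71 in Lgr5Hi and 7.92, 8.03 and 8.18 in Lgr5Neg cells (0.64 ± 0.12, adjusted p = 0.0027). Kcnh2, best known for repolarising heart muscle, read 5.51, 5.29 and 5.64 against 4.96, 4.97 and 4.67 (0.62 ± 0.14, adjusted p = 0.00817). The small-conductance calcium-activated channel Kcnn3 read 4.99, 4.91 and 4.51 against 3.92, 4.39 and 4.07 (0.68 ± 0.18, adjusted p = 0.0196). Kcnn3 lay near the array median in every group, and its call was lost without any of 4 single arrays (adjusted p up to 0.0857). Of 14 markers of tuft cells, a sensory epithelial type, 8 were also higher and none lower in DTR Lgr5Hi than Lgr5Neg cells. In that comparison 7 of 7 stem and sort markers (Lgr5 among them) and 5 of 6 gland mucous markers were higher too. The tuft list averaged 6.25 to 7.24 on Lgr5Hi, 4.98 to 5.73 on Lgr5Lo and 5.44 to 6.03 on Lgr5Neg arrays. On the Lgr5Lo arrays Kcnk1 read 8.48, 8.44 and 8.44, Kcnh2 5.44, 5.33 and 5.34, and Kcnn3 4.61, 4.11 and 4.41. The part of these marker lists in the differences was not tested. Kcnk5, a leak channel shut by acid outside the cell, was the lower one, at 4.30, 4.14 and 4.43 in Lgr5Hi and 4.86, 4.94 and 4.78 in Lgr5Neg cells (-0.57 ± 0.13, adjusted p = 0.00736). Lgr5Hi and Lgr5Neg arrays did not overlap for any of these 4 members. In 1 fit over all 42 arrays none of these 4 passed, with adjusted p = 0.137 for Kcnk1, 0.0568 for Kcnh2, 0.238 for Kcnn3 and 0.564 for Kcnk5.

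In WT pylorus the only higher member was Kcnh1, an ether-a-go-go channel known from brain. Its level was 4.29, 4.21, 4.21 and 4.32 in Aqp5Pos and 3.58, 3.47, 3.43 and 3.53 in Aqp5Neg cells (0.75 ± 0.15, adjusted p = 0.0217). Both groups lay within 1 log2 unit of the array median, and the call was lost without any single Aqp5Neg array (adjusted p from 0.0539 to 0.0771), and after quantile normalization (adjusted p = 0.0517).

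**Figure D3:**
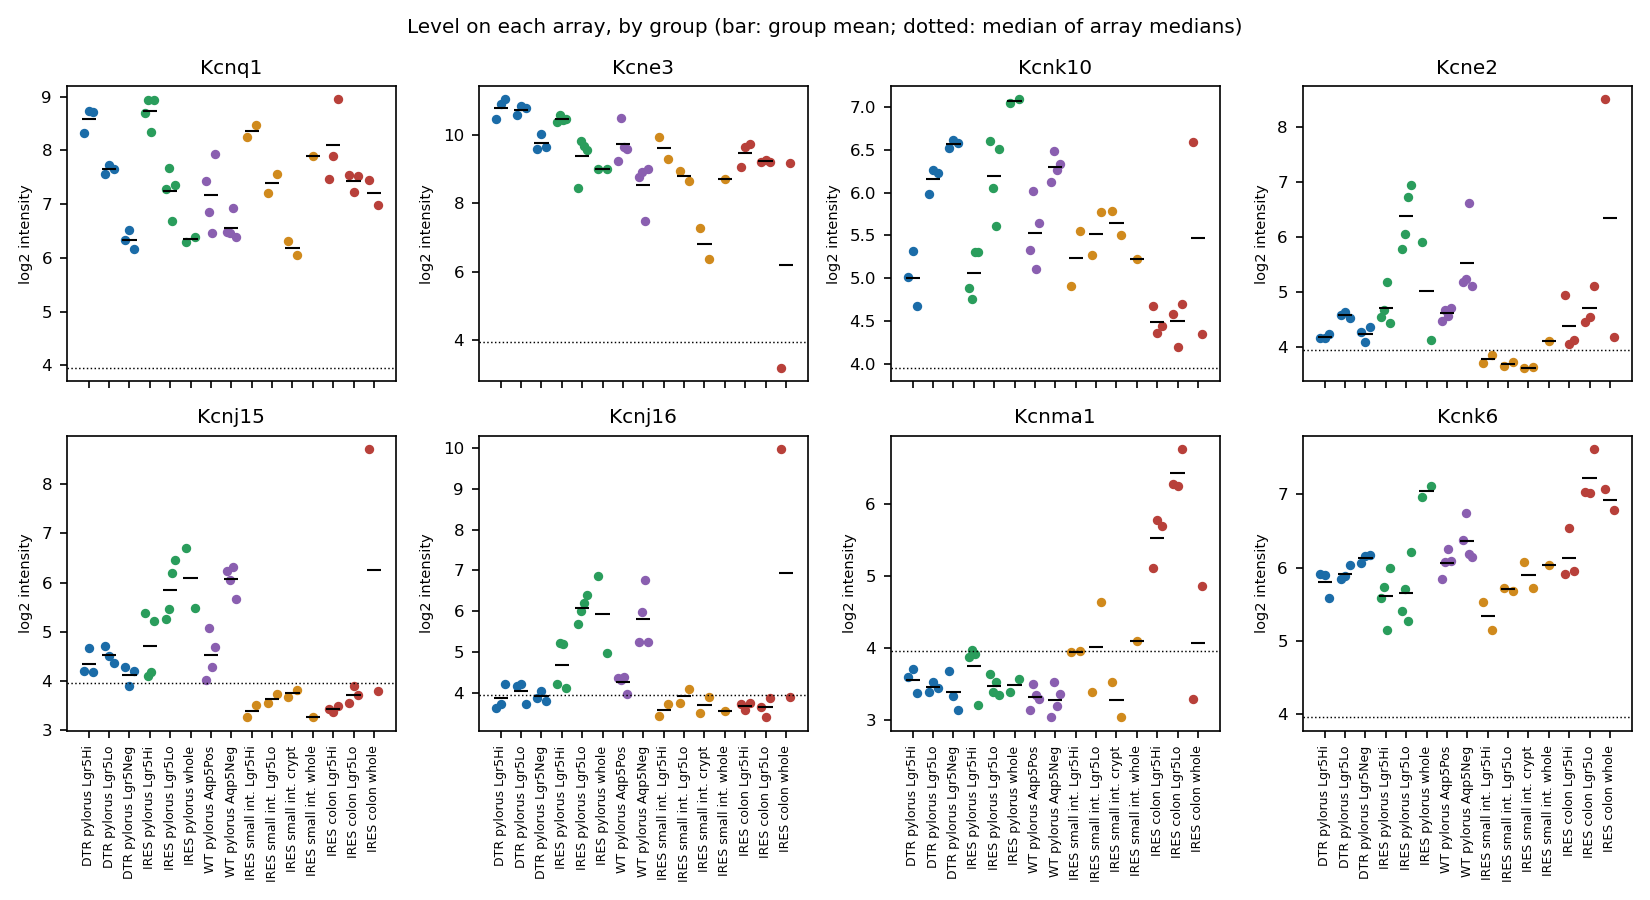
Log2 intensity of 8 members on every array (points) with group means (bars), one panel a gene, each with its own vertical axis, and a dotted line at the median of the array medians. Kcnq1 steps down from Lgr5Hi through Lgr5Lo to Lgr5Neg in the DTR line and Kcnk10 steps up, Kcnj16 reaches 9.97 on 1 whole colon array, and Kcnma1 and Kcnk6 are highest in colon Lgr5Lo cells.

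Kcne2, Kcnj16 and Kcnj15, members known from acid-secreting parietal cells, were lower in the Lgr5-bright or Aqp5-positive pyloric fractions wherever a difference passed. Before their values, the 250 bases before a RefSeq start of each are printed to show what these members share in sequence, with that of Kcne3 as a member that moved the other way (mouse build GRCm38.p6, plus strand in each). The windows are chr16:92292139-92292388 for Kcne2, chr16:95257308-95257557 for Kcnj15, chr11:110967783-110968032 for Kcnj16 and chr7:100176420-100176669 for Kcne3. Capitals mark matches, on either strand, to 4 motifs: GGGCGG (the GC box), TATAAA (the TATA box), CTTTGAT (bound by TCF factors of the Wnt pathway) and AAGGTCA (bound by estrogen-related receptors, which are active in parietal cells).
Kcne2: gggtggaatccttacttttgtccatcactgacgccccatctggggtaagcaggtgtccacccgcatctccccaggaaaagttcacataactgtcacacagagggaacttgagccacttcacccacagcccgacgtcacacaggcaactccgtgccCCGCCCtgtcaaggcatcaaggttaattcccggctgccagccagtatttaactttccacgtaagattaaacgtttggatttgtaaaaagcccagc
Kcnj15: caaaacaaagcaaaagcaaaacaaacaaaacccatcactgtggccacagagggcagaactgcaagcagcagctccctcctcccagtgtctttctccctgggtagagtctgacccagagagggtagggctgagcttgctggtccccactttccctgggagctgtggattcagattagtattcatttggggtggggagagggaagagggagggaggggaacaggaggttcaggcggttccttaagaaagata
Kcnj16: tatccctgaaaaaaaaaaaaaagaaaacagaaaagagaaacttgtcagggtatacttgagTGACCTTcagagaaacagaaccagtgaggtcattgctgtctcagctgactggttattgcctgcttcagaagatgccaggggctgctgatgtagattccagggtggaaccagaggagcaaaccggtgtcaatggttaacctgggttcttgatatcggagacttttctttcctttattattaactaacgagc
Kcne3: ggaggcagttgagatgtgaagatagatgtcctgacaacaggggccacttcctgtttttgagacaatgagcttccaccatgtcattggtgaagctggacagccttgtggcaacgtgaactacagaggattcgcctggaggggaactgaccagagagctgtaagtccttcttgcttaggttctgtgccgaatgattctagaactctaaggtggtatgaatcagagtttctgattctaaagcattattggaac
The Kcne2 window held 1 GC box on the minus strand, starting 95 bases before the start site, and the Kcnj16 window 1 AAGGTCA on the minus strand, starting 190 bases before it. The Kcnj15 and Kcne3 windows held none of the 4 motifs, so the acid-secretion members shared no match in these windows. Kcne2, Kcne3 and Kcnj16 have further RefSeq starts. Those of Kcnj16 held 1 CTTTGAT, 1 TATAAA and 1 GC box, that of Kcne3 held 2 GC boxes, and that of Kcne2 held none of the 4 motifs. Over all starts, the GC box thus occurred in Kcne2, Kcnj16 and Kcne3. Over 95 windows of the 70 members with an entry, AAGGTCA occurred in 3.158% against 4.079% of all 32851 windows, CTTTGAT in 3.158% against 3.205%, TATAAA in 2.105% against 12.368%, and GGGCGG in 44.211% against 32.742%. None of the 4 motifs contains another. A match is a description of the letters and not of binding.

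Kcne2, the gastric partner of Kcnq1, read 4.55, 4.67, 5.19 and 4.43 in IRES pyloric Lgr5Hi cells and 5.79, 6.05, 6.72 and 6.95 in Lgr5Lo cells. The groups did not overlap, and Lgr5Hi lay below Lgr5Lo by -1.67 ± 0.27 (3.18-fold, adjusted p = 0.00336). In DTR pylorus it stayed near the array median, at 4.17, 4.16 and 4.24 in Lgr5Hi, 4.59, 4.64 and 4.53 in Lgr5Lo and 4.27, 4.09 and 4.36 in Lgr5Neg cells, and no DTR difference passed. WT Aqp5Pos cells had 4.48, 4.68, 4.57 and 4.71 and Aqp5Neg cells 5.18, 5.24, 6.61 and 5.10; the groups stood apart, yet -0.92 ± 0.29 did not pass (adjusted p = 0.116).

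Kcnj16, an inward rectifier subunit that works in heteromers, read 4.23, 5.22, 5.20 and 4.11 in IRES Lgr5Hi and 5.70, 6.01, 6.19 and 6.39 in Lgr5Lo cells (-1.39 ± 0.25, 2.61-fold, adjusted p = 0.00588). In WT it read 4.37, 4.32, 4.39 and 3.98 in Aqp5Pos and 5.25, 5.98, 6.77 and 5.24 in Aqp5Neg cells (-1.55 ± 0.3, 2.93-fold, adjusted p = 0.0188). Neither pair of groups overlapped, and the WT call for Kcnj16 was lost without Aqp5Neg replicate 2 (adjusted p = 0.0691). Its partner Kcnj15 read 4.02, 5.08, 4.27 and 4.69 in WT Aqp5Pos and 6.23, 6.05, 6.32 and 5.67 in Aqp5Neg cells (-1.55 ± 0.24, 2.93-fold, adjusted p = 0.00703), also without overlap. In IRES pylorus Kcnj15 read 5.37, 4.10, 4.17 and 5.21 in Lgr5Hi and 5.25, 5.46, 6.20 and 6.46 in Lgr5Lo cells. These groups overlapped through Lgr5Hi replicate 1, and -1.13 ± 0.29 did not pass (adjusted p = 0.0552), though it did with the replicate number as a block (-1.13 ± 0.27, adjusted p = 0.0343). In 1 fit over all 42 arrays Kcnj16 did not pass in IRES pylorus (adjusted p = 0.216) or WT (0.123), nor Kcnj15 in WT (0.0622). That fit includes whole colon replicate 1, at 9.97 for Kcnj16 and 8.72 for Kcnj15, against 3.9 and 3.79 on whole colon replicate 2. In DTR pylorus all 9 arrays lay between 3.64 and 4.23 for Kcnj16 and between 3.89 and 4.71 for Kcnj15, and nothing passed.

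Atp4a, the proton pump subunit that defines parietal cells, moved with these members in the IRES and WT sorts. It read 8.29, 7.99, 9.64 and 9.04 in IRES Lgr5Hi and 10.85, 11.32, 11.32 and 11.57 in Lgr5Lo cells (-2.53 ± 0.29, adjusted p = 0.000187). In WT it read 6.05, 7.66, 4.88 and 7.37 in Aqp5Pos and 9.3, 9.34, 10.97 and 9.53 in Aqp5Neg cells (-3.3 ± 0.55, adjusted p = 0.00893). In DTR pylorus Atp4a was highest in Lgr5Lo cells, at 8.93, 8.29 and 8.47, against 5.41, 6.9 and 5.61 in Lgr5Hi and 5.64, 4.89 and 4.89 in Lgr5Neg cells. There Lgr5Hi lay below Lgr5Lo by -2.59 (adjusted p = 0.00147), and Lgr5Lo exceeded Lgr5Neg by 3.42 (adjusted p = 0.000309), while Kcne2, Kcnj15 and Kcnj16 did not pass. Of the whole list of 9 parietal and chief cell markers, 1 was higher and 3 lower in IRES Lgr5Hi than Lgr5Lo cells, and likewise in WT Aqp5Pos than Aqp5Neg cells. The list averaged 8.03 to 8.88 on IRES Lgr5Hi and 8.91 to 9.69 on Lgr5Lo arrays, and 6.99 to 7.73 on WT Aqp5Pos and 7.79 to 8.91 on Aqp5Neg arrays. How far the number of parietal cells in a fraction sets these differences was not tested. The colon array with the gastric profile was the highest of all 42 for each of these genes, at 8.50 for Kcne2, 8.72 for Kcnj15 and 9.97 for Kcnj16.

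**Figure D4:**
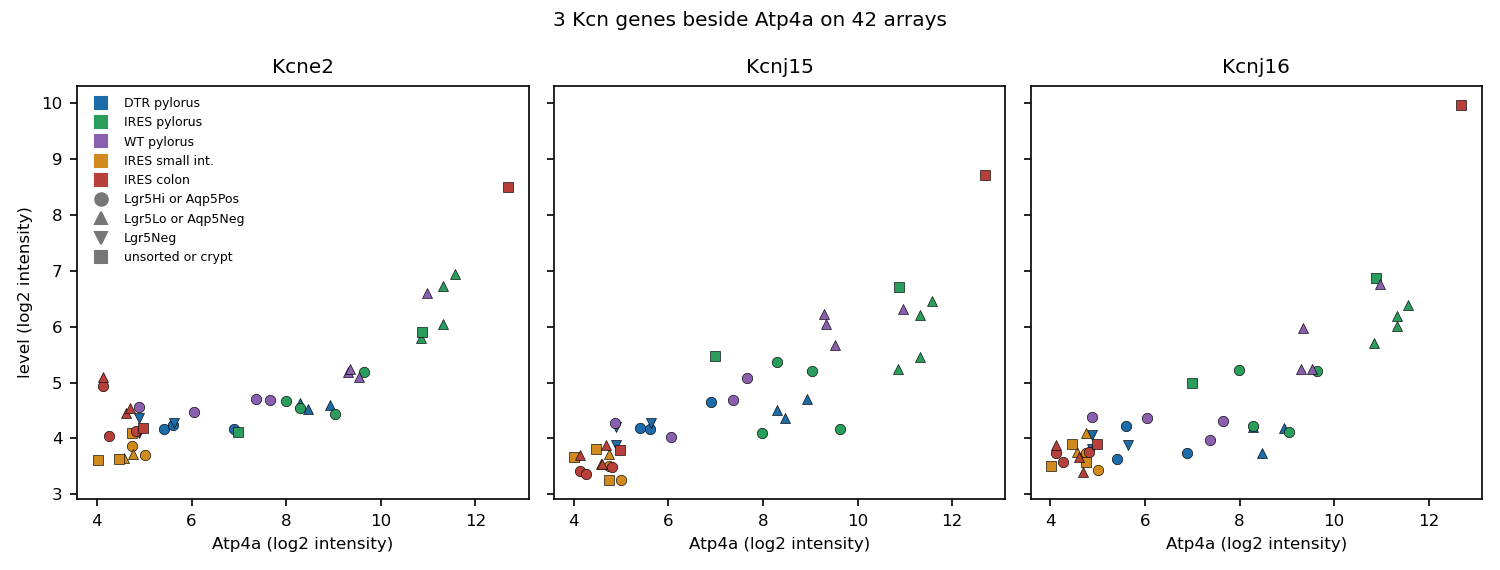
Log2 intensity of Kcne2, Kcnj15 and Kcnj16 (vertical axes, one panel each) against that of Atp4a (horizontal axis) on the 42 arrays, with points marked by sample group. The whole colon array with the gastric profile is the point at an Atp4a level of 12.69, and the DTR Lgr5Lo arrays lie at Atp4a levels from 8.29 to 8.93 with all 3 channel genes at 4.71 or less.

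In the small intestine no member passed between Lgr5Hi and Lgr5Lo cells (limma, 0 of 90), where 0.144% of all genes did. At an unadjusted p under 0.05 there were 3 of 90 members and 1027 genes (4.63% of all genes). The 3 members were Kcnq1, Kcne3 and Kcnq3. Kcnq1 read 8.25 and 8.48 in Lgr5Hi and 7.21 and 7.57 in Lgr5Lo cells, a difference of 0.97 (adjusted p = 0.811). Kcne3 read 9.94 and 9.30 in Lgr5Hi and 8.94 and 8.65 in Lgr5Lo cells, a difference of 0.83 (adjusted p = 0.935). Kcnq3, a subunit of the neuronal M current, had a difference of 0.75 (adjusted p = 0.498). With 2 arrays a group, the median difference was -0.02 over the members and 0.02 over all genes.

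In the colon no member passed either (limma, 0 of 90), and no gene of the array did (0.0%). At an unadjusted p under 0.05 there were 8 of 90 members and 993 genes (4.48% of all genes). The largest fall was that of Kcnk6, a leak channel of internal membranes, at 5.91, 6.54 and 5.95 in Lgr5Hi and 7.03, 7.02 and 7.62 in Lgr5Lo cells. The groups did not overlap, and -1.08 did not pass (adjusted p = 0.474); in 1 fit over all 42 arrays it did (adjusted p = 0.0401). Kcnma1, the pore of the large-conductance calcium-activated channel, read 5.11, 5.77 and 5.69 in Lgr5Hi and 6.27, 6.25 and 6.76 in Lgr5Lo cells (-0.91, adjusted p = 0.882). Kcnh3 and Kcnq1ot1 differed by -0.8 and 0.84 (adjusted p = 0.942 and 0.752). Kcnq1 read 7.46, 7.89 and 8.95 in Lgr5Hi and 7.55, 7.22 and 7.52 in Lgr5Lo cells, with overlap and a difference of 0.67 (adjusted p = 1.0).

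Whether the sort difference itself depended on the organ or the line was tested as a difference of differences, and no member passed in any of the 3 tests. For pylorus against small intestine 4 of 90 members had an unadjusted p under 0.05 (limma), as did 7.25% of all genes. After adjustment 0.0316% of genes passed, and the smallest adjusted p of a member was 0.234, for Kcne2 at -1.77. For pylorus against colon 12 of 90 members had one, as did 8.13% of all genes. After adjustment 0.293% of genes passed, and the smallest adjusted p of a member was 0.147, for Kcnj16 at -1.43. For the DTR against the IRES pylorus 10 of 90 members had one, as did 4.76% of all genes. After adjustment 0.0225% of genes passed, and the smallest adjusted p of a member was 0.398, for Kcne2 at 1.27. On simulated data the within-organ fits of small intestine and colon and these 3 tests missed most changes of 1 log2 unit, so that a change of that size could go uncalled. A call for Kcnq1 or Kcne2 in one organ or line and not in another is thus not shown to be a difference between them.

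Between organs, the same gate was compared in the IRES line. In Lgr5Hi cells of pylorus against small intestine 4 members passed, all higher in pylorus, where 12.1% of genes did. In Lgr5Hi cells of pylorus against colon 5 passed (3 higher, 2 lower; 7.26% of genes), and in Lgr5Hi cells of small intestine against colon 2 passed (1 higher, 1 lower; 2.89%). In Lgr5Lo cells 6 passed between pylorus and small intestine (5 higher, 1 lower; 8.02%), and 11 between pylorus and colon (6 higher, 5 lower; 6.5%). The median difference over members and over all genes was 0.19 and 0.08, -0.03 and 0.03, -0.2 and -0.02, 0.2 and 0.11, and 0.04 and 0.06 in these 5 comparisons, in the order given. The comparisons share groups of arrays.

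The acid-secretion members stood out in pylorus. In Lgr5Lo cells of pylorus Kcnj16 read 5.70 to 6.39, and it exceeded small intestine, where it read 3.76 and 4.09, by 2.15 ± 0.31 (adjusted p = 5.56e-05) and colon, where it read 3.66, 3.40 and 3.88, by 2.43 ± 0.27 (5.37-fold, adjusted p = 2.5e-06). Kcnj15 read 5.25 to 6.46 in pylorus and exceeded small intestine (3.55 and 3.72) by 2.21 ± 0.36 and colon (3.54, 3.89 and 3.71) by 2.13 ± 0.31 (adjusted p = 0.000242 and 9.23e-05). Kcne2 read 5.79 to 6.95 in pylorus and exceeded small intestine (3.65 and 3.72) by 2.69 ± 0.33 (6.47-fold, adjusted p = 8.77e-06) and colon (4.45, 4.55 and 5.10) by 1.68 ± 0.29 (adjusted p = 0.000564). None of these groups overlapped, and in small intestine and colon Kcnj15 and Kcnj16 lay at or near the array median. With all 25 IRES arrays in the fit, Kcnj16 (adjusted p = 0.151 against small intestine and 0.0688 against colon), Kcnj15 (0.0726 and 0.0571) and Kcne2 against colon (0.108) did not pass in Lgr5Lo cells. All of these passed when only whole colon replicate 1 was left out of that fit. In Lgr5Hi cells Kcne2 exceeded small intestine by 0.93 ± 0.33 and colon by 0.33 ± 0.29, and neither passed (adjusted p = 0.0772 and 0.631). In those cells Kcnj15 exceeded small intestine by 1.34 ± 0.36 and colon by 1.29 ± 0.31 (adjusted p = 0.0164 and 0.012), and Kcnj16 by 1.1 ± 0.31 and 1.0 ± 0.27 (adjusted p = 0.0216 and 0.0246). These 4 calls were each lost without at least 1 single array, with adjusted p up to 0.243, and none held in 1 fit over all 42 arrays (adjusted p from 0.136 to 0.391) or with all 25 IRES arrays (0.282 to 0.554). When only whole colon replicate 1 was left out of the latter fit, the Kcnj15 calls passed. The Kcnj16 calls did not (adjusted p = 0.0607 against small intestine and 0.0739 against colon). In Lgr5Lo cells 7 of 9 parietal and chief markers were higher in pylorus than in small intestine and 6 of 9 higher in pylorus than in colon, with 1 lower in each. The list averaged 8.91 to 9.69 on pyloric, 4.55 to 4.67 on small intestinal and 4.97 to 5.28 on colonic Lgr5Lo arrays, and its part was not tested.

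Kcnma1 was lower in pylorus than in colon in both gates. It read 3.87, 3.97, 3.91 and 3.21 in pyloric, 3.94 and 3.95 in small intestinal and 5.11, 5.77 and 5.69 in colonic Lgr5Hi cells. In Lgr5Lo cells it read 3.64, 3.39, 3.52 and 3.34 in pylorus, 3.38 and 4.64 in small intestine and 6.27, 6.25 and 6.76 in colon. Colon was apart from both other organs in each gate, and only in colon did the gene rise above the array median by over 1 log2 unit. Pylorus lay below colon by -1.78 ± 0.27 in Lgr5Hi (3.44-fold, adjusted p = 0.000148) and by -2.96 ± 0.27 in Lgr5Lo cells (7.77-fold, adjusted p = 2.01e-07). Small intestine lay below colon by -1.58 ± 0.33 in Lgr5Hi cells (adjusted p = 0.00669), a call lost without either small intestinal array (adjusted p = 0.0862 and 0.0706). The dimmer second probe set of Kcnma1 never exceeded 4.59, and with the mean of both the differences were -0.78, -1.57 and -1.01 (adjusted p = 0.0127, 7.98e-06 and 0.0134).

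Because Kcnma1 is also abundant in smooth muscle, markers of that tissue were set beside it. The 11 smooth muscle and fibroblast markers averaged 3.85 to 4.05 on pyloric and 3.88 to 4.32 on colonic Lgr5Hi arrays, and 3.69 to 4.18 on pyloric and 3.94 to 4.14 on colonic Lgr5Lo arrays, near the array median throughout. Goblet cell markers differed: 7 of 7 were lower in pylorus than colon in each gate. They averaged 5.7 to 7.9 on pyloric and 10.44 to 11.37 on colonic Lgr5Hi arrays. On Lgr5Lo arrays they averaged 6.24 to 8.59 in pylorus and 11.78 to 11.98 in colon. In small intestine goblet markers averaged 8.06 to 9.55 on Lgr5Hi and 9.5 to 10.53 on Lgr5Lo arrays. Kcnma1 read 3.94 and 3.95 on those Lgr5Hi arrays and 3.38 and 4.64 on those Lgr5Lo arrays. Colonocyte markers were lower in pylorus for 5 of 7 in Lgr5Lo and 4 of 7 in Lgr5Hi cells. Their part in the Kcnma1 difference was not tested.

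Other members also differed between pylorus and colon. In Lgr5Lo cells Kcnk6 read 5.40, 5.71, 5.27 and 6.21 in pylorus and 7.03, 7.02 and 7.62 in colon (-1.57 ± 0.26, adjusted p = 0.000375). Kcnh3, an ether-a-go-go channel known from forebrain, read 4.86, 4.45, 4.08 and 4.00 in pylorus and 5.38, 5.61 and 6.12 in colon (-1.36 ± 0.26, adjusted p = 0.0014). In Lgr5Hi cells Kcnh3 read 3.81, 3.85, 4.49 and 4.03 in pylorus and 4.63, 5.26 and 4.81 in colon, and -0.85 ± 0.26 passed narrowly (adjusted p = 0.0474). Kcnk6 and Kcnh3 did not overlap between the organs in the gates where they passed.
Kcnk5 read 3.35, 4.10, 4.45 and 4.90 in pyloric and 5.56, 5.60 and 5.96 in colonic Lgr5Lo cells (-1.51 ± 0.43, adjusted p = 0.0397). The silent subunit Kcnf1, which acts by modifying other Kv channels, read 3.52, 2.96, 3.43 and 3.30 against 4.05, 4.32 and 4.55 (-1.01 ± 0.26, adjusted p = 0.0184). The Kcnk5, Kcnf1 and Lgr5Hi Kcnh3 calls were each lost without any of several single arrays, with adjusted p up to 0.257.

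Higher in pylorus than colon were Kcnk10, Kcnk16, Kcnq1ot1 and, in Lgr5Hi cells, Kcne3. Kcnk10 read 6.60, 6.05, 5.61 and 6.51 in pyloric and 4.58, 4.20 and 4.70 in colonic Lgr5Lo cells (1.7 ± 0.26, 3.25-fold, adjusted p = 0.00013). Kcnq1ot1, the long RNA read antisense to Kcnq1 that silences genes of its imprinted domain, read 5.61, 5.49, 5.72 and 5.75 in pyloric and 4.09, 4.62 and 4.63 in colonic Lgr5Lo cells (1.2 ± 0.24, adjusted p = 0.00292). Whether the probe sets of Kcnq1 and Kcnq1ot1 separate the strands is not given in the sources used here, and Kcnq1 itself did not pass between organs. Kcnk16, a leak channel known from pancreatic islets, read 4.46, 5.79, 6.90 and 5.47 in pyloric, 4.28 and 4.11 in small intestinal and 3.97, 4.50 and 4.06 in colonic Lgr5Lo cells. It passed against both (1.46 ± 0.45, adjusted p = 0.0483, and 1.48 ± 0.39, adjusted p = 0.025), although pylorus and colon overlapped and single arrays ended either call (adjusted p up to 0.235). Enteroendocrine markers, of the gut's hormone cells, were higher in pyloric than small intestinal Lgr5Lo cells for 2 of 21 and lower for 6, and higher in pyloric than colonic Lgr5Lo cells for 7 and lower for 2. Their part in the Kcnk16 difference was not tested. Kcne3 read 10.39 to 10.59 in pylorus and 9.05, 9.64 and 9.75 in colon and was higher by 0.99 ± 0.28 in Lgr5Hi cells (adjusted p = 0.0311), lost without any of 5 single arrays (adjusted p up to 0.185).

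Against small intestine, Kcnk1 was higher in pylorus in both gates. It read 8.62, 8.85, 8.57 and 8.88 in pyloric and 7.64 and 8.06 in small intestinal Lgr5Hi cells (0.88 ± 0.24, adjusted p = 0.0215). In Lgr5Lo cells it read 8.51, 8.49, 8.05 and 8.38 in pylorus and 7.23 and 7.70 in small intestine (0.89 ± 0.24, adjusted p = 0.0257). Kcnk1 stayed above the threshold in all 15 groups; without 1 small intestinal array the adjusted p was 0.312 in Lgr5Hi and 0.359 in Lgr5Lo cells. Among members that passed against small intestine, Kcns3, a silent Kv subunit, was the only one lower in pylorus, at 4.45, 4.68, 4.14 and 4.53 against 5.53 and 5.11 in Lgr5Lo cells (-0.87 ± 0.25, adjusted p = 0.0333). Kcnd3os, a transcript opposite Kcnd3, read 3.66, 3.60, 3.52 and 3.25 in pyloric and 2.57 and 2.65 in small intestinal Lgr5Hi cells (0.9 ± 0.27, adjusted p = 0.0332), all under the array median. Both calls were lost without single arrays (adjusted p up to 0.373). Kcnj2, the inward rectifier that lies next to Kcnj16 in the genome, read 4.87 and 4.67 in small intestinal and 3.06, 2.87 and 2.87 in colonic Lgr5Hi cells (1.84 ± 0.36, 3.57-fold, adjusted p = 0.00403). It thus did not take the pyloric pattern of its neighbour, and the call was lost without small intestinal replicate 1 (adjusted p = 0.0849). In Lgr5Hi cells of small intestine against colon 3 of 5 Paneth markers and 5 of 10 enterocyte markers were also higher, and their part in the Kcnj2 difference was not tested.

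**Figure D5:**
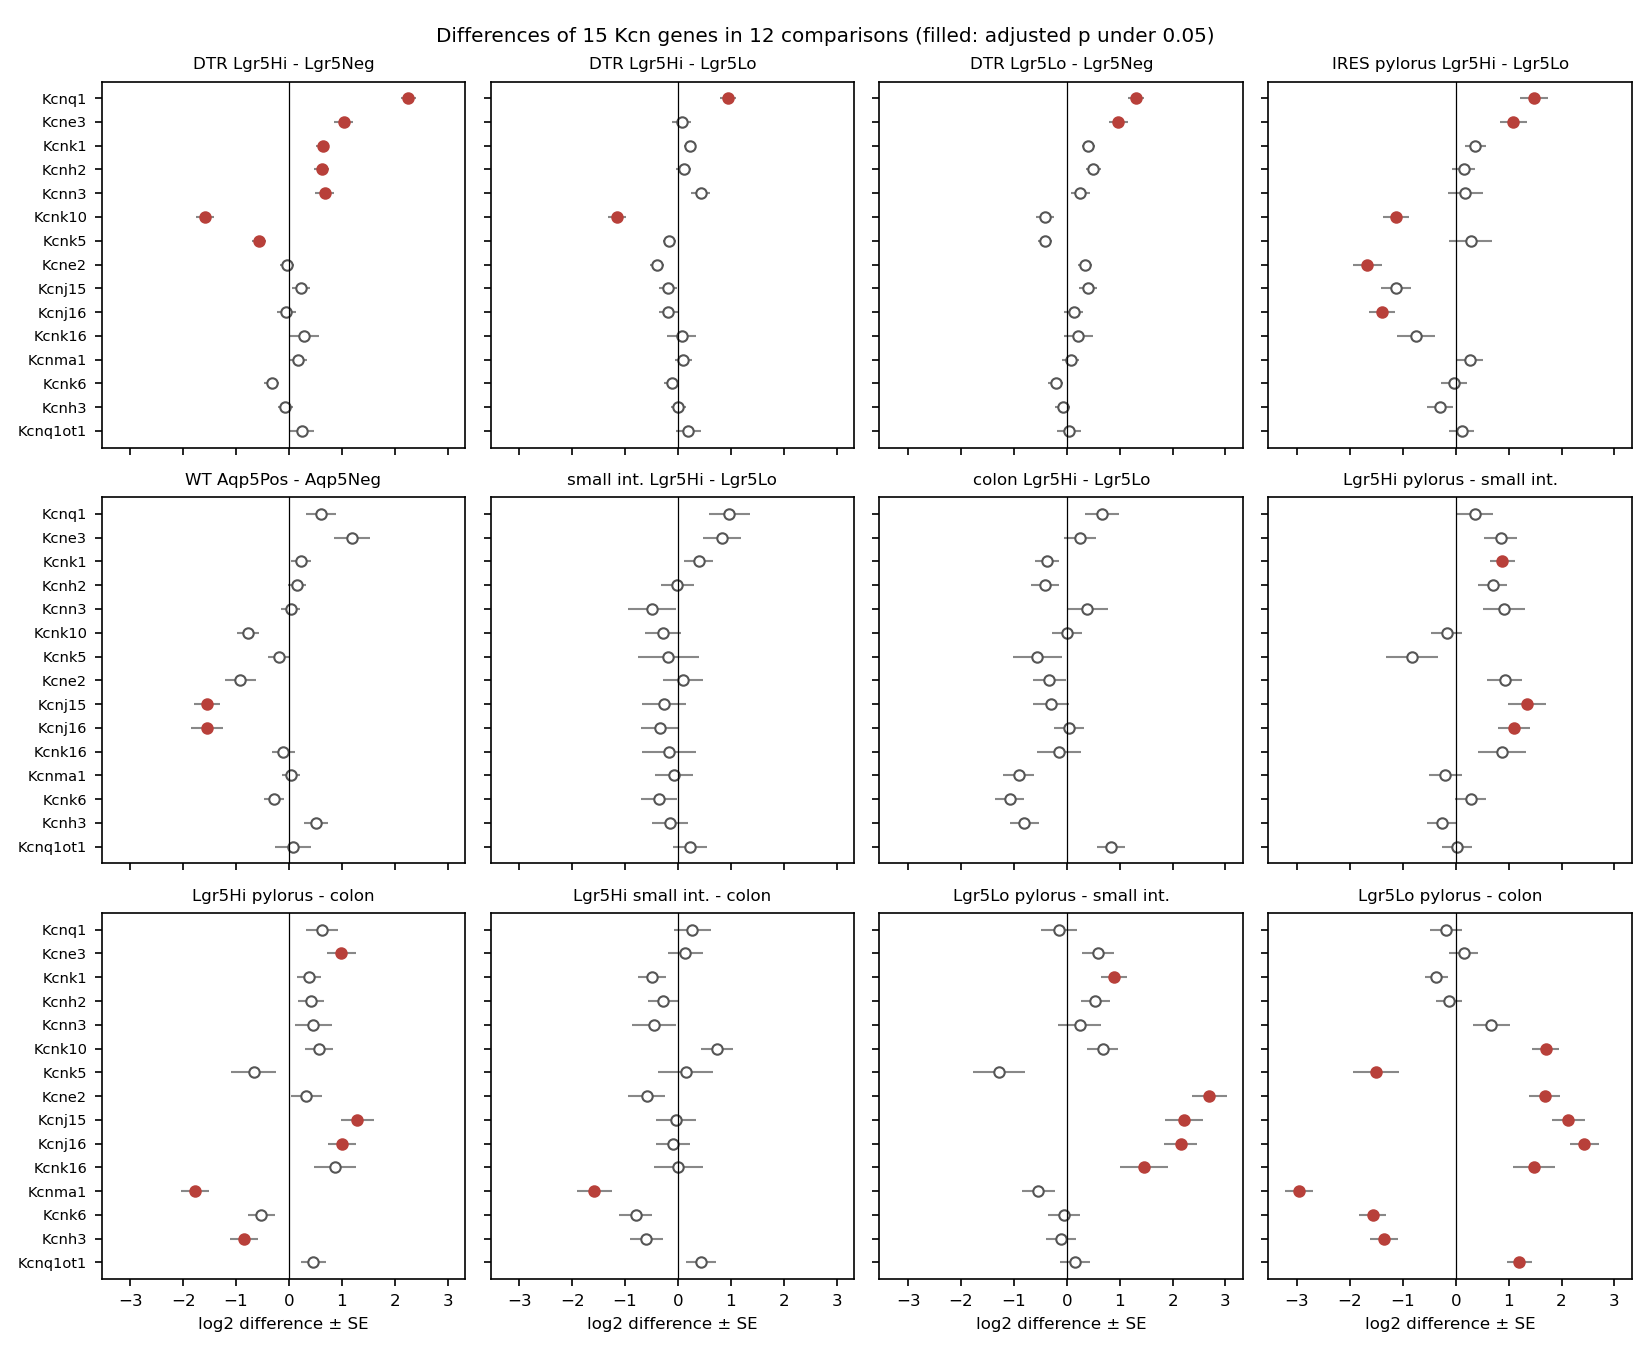
Log2 difference with its standard error of 15 members in each of the 12 comparisons of 2 groups, with filled points where the adjusted p is under 0.05 and a line at 0. Kcnq1 is filled to the right in 4 sorts, Kcnk10 to the left in 3, Kcnj16 in 6 comparisons with the higher level in pylorus or in the Lgr5Lo or Aqp5Neg cells, and Kcnma1 to the left in 3 comparisons with colon.

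Over the 15 tests 20 members (22.2%) passed at least once and 70 never did, where 29.7% of all genes passed at least once. Of the 20, 15 were above the brightness threshold and 5 near the median (Kcnd3os, Kcnf1, Kcnh1, Kcnj2 and Kcnn3). Kcnj16 passed in 6 comparisons and Kcnj15 in 5, and Kcnq1, Kcne3 and Kcnk10 in 4 each. Kcnn4, the intermediate-conductance calcium-activated channel that drives secretion in many epithelia, never passed. Its group means ran from 7.41 in WT Aqp5Pos to 8.22 in small intestinal Lgr5Hi cells among the sorted fractions, and the crypt arrays were lowest at 6.26. Kcna4 was bright on 1 probe set, with a mean of 7.47, and near background on another, with a mean of 2.95, so its level rests on the choice of probe set; it did not pass. Kcnj10, Kcnj11 and Kcnj1 did not pass either. Kcnj11, the pore of the ATP-sensitive channel, lay between 4.2 and 4.74 over the 15 groups. The kidney channel Kcnj1 lay between 2.58 and 3.82, and Kcnj10, a partner of Kcnj16 in kidney and glia, between 4.26 and 5.4. Kcne1, the cardiac partner of Kcnq1, lay between 3.57 and 4.28 in every group other than whole colon.

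Ion transporters that work with these channels gave the following counts. Of 24 listed potassium pumps and cotransporters 19 were measured, and 3 were higher and 1 lower in DTR Lgr5Hi than Lgr5Neg cells. Slc12a2, which loads chloride and potassium into secretory cells, averaged 11.9 in Lgr5Hi and 9.8 in Lgr5Neg cells (2.1 ± 0.13, adjusted p = 6.74e-07), the same direction as Kcnq1 and Kcne3. In IRES pylorus 3 were lower in Lgr5Hi than Lgr5Lo cells and none higher: Atp4a, Atp4b (-2.04 ± 0.33, adjusted p = 0.00336) and Fxyd6, a modulator of the sodium pump (-1.68 ± 0.33, adjusted p = 0.012). In WT 1 was higher (Slc12a2, 1.07 ± 0.16) and 2 lower (Atp4a and Atp4b) in Aqp5Pos than Aqp5Neg cells. In Lgr5Lo cells 3 were higher and 2 lower in pylorus than colon, the lower ones being Fxyd4 (-2.25 ± 0.59) and the colonic proton pump Atp12a (-1.62 ± 0.48). The list's median difference was 0.13, -0.12, 0.19 and 0.11 in these 4 comparisons, where the same over all genes was 0.02, -0.04, 0.06 and 0.06. The share of all genes that passed was 18.3%, 1.59%, 2.8% and 6.5%.

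Of 27 listed partner proteins and regulators of potassium channels outside the Kcn symbols 23 were measured. In DTR Lgr5Hi against Lgr5Neg cells 4 were higher and 1 lower, among them the kinases Wnk4 (1.06 ± 0.13) and Wnk2 (0.82), and the ubiquitin ligase Nedd4l (-0.65 ± 0.15), which removes Kcnq1 from the membrane. In IRES pylorus only Abcc8, the sulfonylurea receptor that joins Kcnj11, was lower in Lgr5Hi than Lgr5Lo cells (-0.95 ± 0.2, adjusted p = 0.0173). Lrrc26, a subunit that lets Kcnma1 open at rest in secretory cells, averaged 7.45 in pyloric and 8.31 in colonic Lgr5Lo cells (-0.86 ± 0.23, adjusted p = 0.027), a smaller difference than that of Kcnma1. The kinase Sgk1 was lower in Lgr5Hi cells of small intestine than colon (-1.69 ± 0.42, adjusted p = 0.0271). In Lgr5Lo cells 5 were lower in pylorus than colon and none higher. The list's median difference was 0.08, 0.03, -0.2 and -0.01 in these 4 comparisons, beside 0.02, -0.04, -0.02 and 0.06 over all genes. Of all genes 18.3%, 1.59%, 2.89% and 6.5% passed in them.

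Of 27 listed chloride and bicarbonate channels and exchangers 26 were measured, and 5 were higher and 8 lower in DTR Lgr5Hi than Lgr5Neg cells. The calcium-activated chloride channel Ano1 was the only one to pass in IRES pylorus, lower in Lgr5Hi than Lgr5Lo cells (-1.27 ± 0.3, adjusted p = 0.0346). In WT Aqp5Pos cells 2 were higher and 4 lower than in Aqp5Neg cells. The list's median was -0.04, -0.23 and -0.19 in these 3 comparisons, beside 0.02, -0.04 and 0.06 over all genes. Of all genes 18.3%, 1.59% and 2.8% passed in them. Slc26a9, a gastric chloride channel, averaged 8.39 in pyloric and 3.9 in colonic Lgr5Lo cells (4.5 ± 0.27), and Best2, a bicarbonate channel of goblet cells, 4.18 and 7.67 (-3.49 ± 0.29). In that comparison 3 were higher and 8 lower, with a list median of -0.35 beside 0.06 over all genes, of which 6.5% passed.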

How the data were processed

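Per the labels' protocols, glands were released by chelation and digested to single cells that were sorted by fluorescence, and at least 2 ng of RNA was amplified for Affymetrix mouse gene arrays. The deposited values are log2 intensities, 1 for each probe set and array, as the authors normalized them. Per the submitters' processing notes it involved RMA, oligo, Partek, R 3.2.3 and limma 3.26.8, with no order or role given. The genome build is not given in the sources used here.

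Of 41345 probe sets, 23521 carried 1 gene symbol in the platform annotation, 1814 several and 16010 none. The probe set with the highest mean over all arrays represented each of 22180 genes, and 7 of the 90 potassium channel genes had more than 1. In limma 3.58.1 (R 4.3.3), 1 mean per group was fitted with eBayes moderation, separately for the 9 DTR arrays, the 18 sorted IRES arrays and the 8 WT arrays. Adjusted p-values are Benjamini-Hochberg over all genes, and a gene passed under 0.05. The DTR and sorted IRES arrays were fitted together to compare the lines. On simulated data the fits recovered most changes of 2 log2 units, but outside the DTR pylorus every comparison missed most changes of 1 log2 unit.

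To check whether replicate numbers pair arrays, each array's departure from its group mean was correlated, across genes, with that of the array of the same number. For IRES pylorus r was 0.162, 0.104, 0.273 and 0.296, and for colon 0.176, 0.136 and 0.242, all positive. Arrays of unlike numbers were not correlated for comparison, so pairing there was possible but not shown. The main tests left replicate numbers out in every group, and a replicate block was tried only as another setting. For small intestine there were only 2 pairs (0.373 each), and in DTR (-0.112 to 0.154) and WT (-0.023 to 0.165) the numbers were not taken as pairs.

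The members, lists and tests were chosen with earlier results of these data known. Named genes were a fixed list of members known from gut epithelium, then up to 6 rises and 6 falls per comparison among called members whose groups did not overlap, the 8 brightest and the 6 most variable members. Kcnk16 against colon overlapped and is named because it passed. Of other lists, up to 4 genes with the smallest p were named per comparison. Settings tried were a replicate block, quantile normalization, a median shift, the mean of probe sets, other sets of arrays and each array left out.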

Additional observations from a re-analysis of the deposited data

Results flagged for a closer look

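Among 104 groups of at least 4 arrays tested over the named members, 5 held an array far from the others of its group, where chance gives about 1 in 20. Kcna4 read 7.64 on IRES pylorus Lgr5Hi replicate 1, and 7.06 to 7.15 on the others. Kcnma1 read 3.21 on IRES pylorus Lgr5Hi replicate 4, and 3.87 to 3.97 on the others. On WT Aqp5Neg replicate 3, Kcne2 read 6.61 where the others had 5.1 to 5.24, and Kcne3 read 7.49 where the others had 8.78 to 9.02. That array also had the highest Atp4a level of its group, 10.97. Kcnh3 read 4.07 on WT Aqp5Pos replicate 2, and 4.66 to 4.77 on the others.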

How the results depend on the processing

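Of 47 passing results of single members, none changed direction, 25 held without any single array, 13 held in every other setting and 10 in both. The counts of passing members moved by over 1.5 times as follows. In 1 fit over all 42 arrays 2 members passed for DTR Lgr5Hi against Lgr5Neg, 0 for Lgr5Hi against Lgr5Lo, 0 for Lgr5Lo against Lgr5Neg, 1 in WT, 1 in colon (Kcnk6) and 2 for pyloric against colonic Lgr5Hi cells. Of all genes in that fit, 679 were higher and 836 lower for DTR Lgr5Hi against Lgr5Neg, where the main fit had 1960 and 2102. The counts were 30 and 102 (main fit 449 and 653) for Lgr5Hi against Lgr5Lo, and 22 and 2 (348 and 140) for Lgr5Lo against Lgr5Neg. In WT they were 261 and 909 (121 and 500), and in colon 12 and 8 (0 and 0). For pyloric against colonic Lgr5Hi cells they were 951 and 1331 (661 and 950). With all 25 IRES arrays, whole colon replicate 1 included, 1 passed in IRES pylorus and 1 each for pyloric Lgr5Hi cells against small intestine and colon. Of all genes, 134 were then higher and 196 lower in IRES pylorus. In pyloric Lgr5Hi cells they were 1036 and 1716 against small intestine and 644 and 936 against colon. Kcne2, Kcne3, Kcnj16 and Kcnk10 were lost in IRES pylorus, and Kcnk1 against small intestine in Lgr5Hi (0.0731) and Lgr5Lo cells (0.0876). Against colon in Lgr5Hi cells Kcne3 (0.538) and Kcnh3 (0.0862) were lost. Each of these calls passed when only whole colon replicate 1 was left out of that fit. That Kcne3 call against colon was also lost in 1 fit over all 42 arrays (0.382). Quantile normalization ended the calls of Kcnd3os (0.0586), Kcnk16 against small intestine (0.108) and colon (0.0517), and Kcnk5 against colon (0.0817), and a median shift those of Kcnk1 (0.055) and Kcnk16 (0.0808) against small intestine and Kcnk5 against colon (0.0518) in Lgr5Lo cells. Requiring a difference of at least 1 left 3, 1 and 1 in the DTR comparisons and 2 each for pyloric Lgr5Hi cells against small intestine and colon. With the replicate number as a block, 3 passed for pyloric against colonic Lgr5Hi cells. Between organs equal numbers share only a number; there the block ended the calls for Kcne3 (0.0518) and Kcnh3 (0.0927) in Lgr5Hi cells against colon, and for Kcnk16 (0.0884) and Kcns3 (0.0565) in Lgr5Lo cells against small intestine, and that of Kcnh1 in WT (0.0538). It added Kcnk4 (0.0171) and Kcnk5 (0.0314) in Lgr5Lo cells against small intestine and Kcnc2 (0.0185) in Lgr5Lo cells against colon. Within the IRES organs it added Kcnj15 in pylorus and changed no other member call. The cause of these changes was not tested. Leaving out 1 array at a time, the count of passing members ran from 6 to 8 for DTR Lgr5Hi against Lgr5Neg, 2 to 3 for Lgr5Hi against Lgr5Lo, 1 to 2 for Lgr5Lo against Lgr5Neg, 3 to 5 in IRES pylorus and 1 to 4 in WT. It stayed at 0 in small intestine, in colon and in the differences of differences. Pyloric Lgr5Hi cells gave 0 to 4 against small intestine and 1 to 5 against colon, small intestinal against colonic Lgr5Hi cells 0 to 2, and pyloric Lgr5Lo cells 3 to 7 against small intestine and 8 to 11 against colon. Matching counts over all genes are not given here for the difference of at least 1, the block and the arrays left out. Of all genes passing in IRES pylorus, 132 were higher and 221 lower, against 244 and 218 after quantile normalization. In WT these were 121 and 500, against 156 and 254.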
